A study of Homo sapiens with 6 samples.

Results

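The genes described here are widely used as readouts of the YAP/TEAD transcription complex, and each was followed in WM164 cells that carried a vector for HDAC8 and in the same line with an empty expression vector (EV). The 10 members were taken by gene symbol from a table of 60504 genes. They are CTGF (now CCN2), CYR61 (now CCN1), ANKRD1, AMOTL1, AMOTL2, AJUBA, LATS2, CRIM1, NT5E and F3. All 10 had enough counts to be tested.

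WM164 is an established human melanoma cell line with the BRAFV600E mutation, which both groups share. HDAC8 is a class I histone deacetylase, and the study asked how raising it changes the transcriptome of melanoma cells. Each group had 3 RNA-seq libraries. Per the study's methods, plasmids were introduced by lipofection and the transfected cells were kept under hygromycin, and neither the promoter of the vector nor the use of clones or pools is given in the sources used here. The labels number the libraries of a group as biological replicates without naming separate cultures, so p-values measure the spread between these libraries, which may be technical. Mitochondrially encoded transcripts made up 9.66% to 12.8% of each EV library and 4.46% to 7.94% in those labelled HDAC8. Without these transcripts in the fit 7 members were called, as with them.

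The Hippo pathway is a kinase cascade that restrains growth of tissues. When the cascade is active, the LATS kinases phosphorylate the co-activators YAP (gene YAP1) and TAZ (gene WWTR1), which are then held in the cytoplasm. When it is inactive, both enter the nucleus, bind the TEAD transcription factors and raise transcription of targets such as those described here. In melanoma, YAP and TEAD activity is known for its links to dedifferentiated and invasive cells.

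The upstream sequences of the members came from the RefSeq promoter table (GRCh38.p14), which held 8 of the 10 members. CYR61 and CRIM1 were not matched. Each window ran from 250 bases before the annotated start to 50 bases after it, and was searched on both strands for GGAATG, the core of the TEAD site, and for TGANTCA, the AP-1 site. No match of one overlapped a match of the other. Upstream stretches are printed for CTGF and ANKRD1, which carry the TEAD core more than once, and for F3, which carries only the AP-1 letters. They are written 5′ to 3′ on the strand of the gene, with matches in capitals. CTGF is at chr6:131951373-131951622, ANKRD1 at chr10:90921088-90921337 and F3 at chr1:94541760-94542009, all on the minus strand.
CTGF: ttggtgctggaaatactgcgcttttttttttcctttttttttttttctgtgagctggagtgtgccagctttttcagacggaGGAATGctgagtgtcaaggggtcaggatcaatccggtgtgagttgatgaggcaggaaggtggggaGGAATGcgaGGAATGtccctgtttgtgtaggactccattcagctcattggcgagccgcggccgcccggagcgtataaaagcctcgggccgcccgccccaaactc
ANKRD1: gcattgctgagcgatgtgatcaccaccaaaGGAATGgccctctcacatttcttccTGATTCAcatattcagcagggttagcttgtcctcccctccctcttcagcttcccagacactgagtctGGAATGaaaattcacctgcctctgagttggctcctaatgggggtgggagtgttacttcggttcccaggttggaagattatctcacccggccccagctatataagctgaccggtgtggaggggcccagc
F3: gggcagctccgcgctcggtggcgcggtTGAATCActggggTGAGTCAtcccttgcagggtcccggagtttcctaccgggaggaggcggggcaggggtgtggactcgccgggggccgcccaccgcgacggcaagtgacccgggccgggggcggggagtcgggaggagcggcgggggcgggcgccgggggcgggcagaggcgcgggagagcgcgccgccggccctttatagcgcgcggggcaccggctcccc
For AMOTL2, AJUBA and LATS2, whose windows hold the core 1 time each, only the 30 bases around the match are shown. The upstream bases of AMOTL2 and AJUBA overlap exons of the gene, and the LATS2 match lies after the start. AMOTL2 (chr3:134374499-134374528, minus strand) holds the core on the opposite strand, so that it reads as its reverse complement, and AJUBA is at chr14:22976884-22976913 and LATS2 at chr13:21061560-21061589, also on the minus strand.
AMOTL2: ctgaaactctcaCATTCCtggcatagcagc
AJUBA: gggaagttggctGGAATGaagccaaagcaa
LATS2: cgtgacgcccgtGGAATGccaacaatgtag

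The 8 matched members had 10 windows, and 5 of these members held the core GGAATG in at least 1 window. Counted per window and not per gene, the core was present in 14.03% of all 35116 RefSeq windows of the same length. CTGF held it 3 times, with first bases at -169, -104 and -95 from the start. ANKRD1 held it at -220 and -128. AMOTL2 held it at -69 from 1 of its 2 annotated starts, AJUBA at -59 from 1 of its 2, and LATS2 at 10 bases after the start. TGANTCA was present in 7.71% of all windows and in those of ANKRD1 (at -195) and F3 (at -223 and -210). The windows of AMOTL1 and NT5E held neither. Both windows lay inside the annotated gene, from chr11:94768106 for AMOTL1 and from chr6:85449833 for NT5E. The sequence before the outermost start of these genes was therefore not searched. The windows of AMOTL2 and AJUBA that held the core also lay inside the gene. The members were picked as known targets, and a match of letters is a description and not a site.

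**Figure D1:**
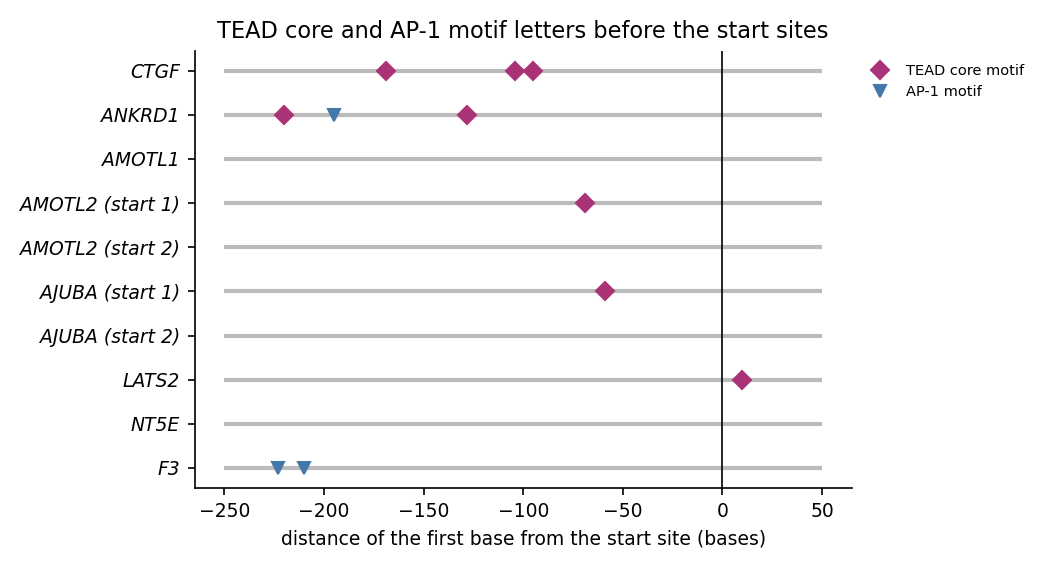
Positions of the letters GGAATG (TEAD core) and TGANTCA (AP-1) in the promoter windows of the 8 members with a RefSeq entry, on an axis of bases from the annotated start, with a row for each start of genes that have 2. The matches of CTGF lie at -169, -104 and -95, and the rows of AMOTL1 and NT5E have none.

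Of the members, 7 rose in the libraries labelled HDAC8 and none fell (n = 3 libraries a group). In order of log2 fold change the rises were CTGF (3.89), ANKRD1 (3.42), AMOTL2 (3.10), NT5E (2.97), CYR61 (2.14), CRIM1 (1.54) and AMOTL1 (0.93). AJUBA, F3 and LATS2 were not called, with log2 fold changes of 0.35, 0.14 and 0.05. Calls needed an adjusted p under 0.05 (DESeq2, Benjamini-Hochberg over the whole table) together with a log2 fold change of 0.58 or more in either direction. Among all 21021 genes with an adjusted p, 11% were called, 5.57% higher and 5.44% lower. All 10 fitted log2 fold changes of the members were above 0, and neither edgeR nor limma-voom called a member lower. Their median was 1.84 against -0.003 over all genes tested. Every library labelled HDAC8 lay above every EV library in 7 of the 10 members, the same 7 that were called. Over all genes tested, called or not, this held for 13.8%. In bulk RNA, more cells that express a gene and more RNA per cell cannot be told apart.

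The vector's own gene did not check the labels. HDAC8 had a log2 fold change of 0.15 (SE 0.28, DESeq2 with Benjamini-Hochberg adjusted p = 0.856), with overlapping groups. Directions given here follow the labels of the libraries.

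**Figure D2:**
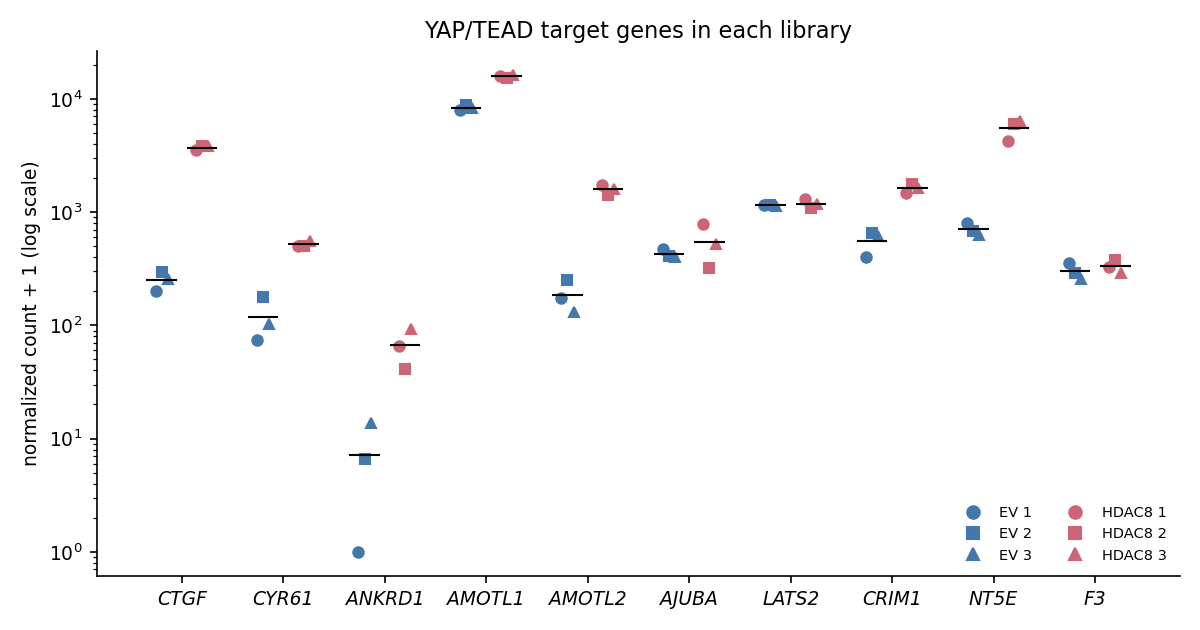
Normalized counts of the 10 members on a log axis, with a point for each of the 3 EV and 3 HDAC8 libraries and a line at each group's mean. CTGF lies between 200.3 and 294.2 in the EV libraries and between 3522.9 and 3817.0 in those labelled HDAC8, whereas the points of AJUBA, LATS2 and F3 overlap.

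Matricellular proteins of the CCN family are the most used YAP/TEAD readouts. CTGF (ENSG00000118523, GENCODE 44 on GRCh38, chr6:131948176-131951372) encodes a secreted protein that acts on adhesion and matrix production. Its normalized counts were 200.3, 294.2 and 256.1 in EV cells and 3522.9, 3817.0 and 3801.5 in the libraries labelled HDAC8. The lowest HDAC8 library stood 12.0-fold above the highest EV library. The mean went from 250.2 ± 47.2 to 3713.8 ± 165.5 (SD, n = 3 each), a log2 fold change of 3.89 (SE 0.19, 95% interval 3.51 to 4.27, DESeq2 with Benjamini-Hochberg adjusted p = 2.06e-86) or 14.8-fold. Over the 14440 tested genes whose normalized counts averaged 50 or more, this rise ranked 47. No other member ranked higher.

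CYR61 (ENSG00000142871, chr1:85580761-85584589), the secreted cysteine-rich relative of CTGF, had 73.4, 178.4 and 101.5 normalized counts in EV cells and 503.6, 503.9 and 552.1 in the libraries labelled HDAC8. The groups did not overlap, and the EV libraries differed more among themselves (coefficient of variation 46.2%) than the HDAC8 libraries (5.37%). From a mean of 117.8 ± 54.4 to 519.9 ± 27.9 (SD, n = 3 each), the log2 fold change was 2.14 (SE 0.39, 95% interval 1.37 to 2.91, DESeq2 with Benjamini-Hochberg adjusted p = 2.03e-06), or 4.41-fold.

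CYR61 and CTGF thus both rose, by unequal amounts. The log2 ratio of CYR61 to CTGF counts within a library was -1.45, -0.72 and -1.34 for EV, against -2.81, -2.92 and -2.78 for the libraries labelled HDAC8. The ratio was lower in every HDAC8 library, from a mean of -1.17 ± 0.39 to -2.84 ± 0.07 (SD, n = 3 each), a difference of -1.67. An exact two-sided permutation test gave p = 0.10, which is the smallest value that 3 libraries against 3 allow, and 0.10 after Benjamini-Hochberg adjustment over the 2 pairs of paralogs compared. A ratio of this kind does not depend on scaling between libraries.

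Of the other CCN genes, NOV (CCN3) rose from 634.3 ± 92.0 to 1587.1 ± 281.1 normalized counts (SD, n = 3 each), a log2 fold change of 1.32 (SE 0.23, DESeq2 with Benjamini-Hochberg adjusted p = 3.81e-07). WISP2 (CCN5) was not called, at -0.96 (SE 0.74). WISP1 (CCN4), at 0 to 16.8 normalized counts, had a log2 fold change of -0.31 (SE 2.24). WISP3 (CCN6) had 19.9, 33.6 and 16.7 normalized counts in EV cells and 0, 3.07 and 0 in the libraries labelled HDAC8, where no value exceeded the floor, set at 3 counts per library, and it was not called (DESeq2 with Benjamini-Hochberg adjusted p = 0.10).

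ANKRD1 (ENSG00000148677, chr10:90912096-90921087) encodes a nuclear ankyrin repeat protein best known from stretched or stressed muscle. It was the member with the fewest reads, with 0, 6 and 13 counts in EV cells and 76, 39 and 85 in the libraries labelled HDAC8. As normalized counts these were 0, 5.60 and 12.8 against 65.0, 39.9 and 92.6, so the groups did not overlap although the EV values ran down to 0. The log2 fold change was 3.42, with a wide error (SE 1.15, 95% interval 1.17 to 5.67, DESeq2 with Benjamini-Hochberg adjusted p = 0.0272). edgeR's quasi-likelihood test gave an adjusted p of 0.0858 and limma-voom 0.0615, so that neither called ANKRD1. Its DESeq2 call was also lost without EV 1 (adjusted p = 0.0816), EV 2 (0.0934), HDAC8 1 (0.0713) or HDAC8 3 (0.233), leaving 6 members called each time. Of its muscle paralogs, ANKRD23 had a log2 fold change of -0.10 (SE 0.57), and ANKRD2 was at 0 in 4 of the 6 libraries and had no adjusted p.

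The angiomotin-like proteins are scaffolds at cell junctions that bind YAP and TAZ and keep them out of the nucleus, and their genes are in turn targets of YAP/TEAD. AMOTL2 (ENSG00000114019, chr3:134355347-134375479) had 175.1, 250.3 and 131.0 normalized counts in EV cells and 1745.2, 1417.4 and 1599.7 in the libraries labelled HDAC8. The lowest HDAC8 library was 5.66-fold above the highest EV library. Its log2 fold change was 3.10 (SE 0.27, 95% interval 2.57 to 3.63, DESeq2 with Benjamini-Hochberg adjusted p = 7.48e-28), or 8.55-fold between means of 185.5 ± 60.3 and 1587.4 ± 164.2 (SD, n = 3 each).

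AMOTL1 (ENSG00000166025, chr11:94706431-94876748) started from a much higher count and rose less. It had 7929.5, 8873.3 and 8272.1 normalized counts in EV cells and 15964.4, 15400.1 and 16377.8 in the libraries labelled HDAC8, without overlap. The log2 fold change was 0.93 (SE 0.12, 95% interval 0.69 to 1.17, DESeq2 with Benjamini-Hochberg adjusted p = 3.64e-12), or 1.90-fold. In counts, which grow with transcript length, this was nevertheless the largest gain of any member, 7555.8 normalized counts. Scaled by transcript length (8980 bases for AMOTL1, 2338 for CTGF) and library total, as below, CTGF gained more. On that scale AMOTL1 went from 24.2 to 47.5 and CTGF from 2.77 to 42.5. When the fold change minimum was built into the test, a version that called 1.39% of all genes higher, AMOTL1 was no longer called (DESeq2 with Benjamini-Hochberg adjusted p = 0.129).

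Within a library the AMOTL1 count was 45.3, 35.5 and 63.1 times the AMOTL2 count in the EV libraries and 9.15, 10.9 and 10.2 times in those labelled HDAC8. On the log2 scale the ratio went from 5.54 ± 0.42 to 3.33 ± 0.13 (SD, n = 3 each), a difference of -2.21, with an exact two-sided permutation p of 0.10, again the smallest the design allows, and 0.10 after adjustment over the 2 pairs. AMOT, the founding member of the family, was not called, with a log2 fold change of 0.16 (SE 0.15) and overlapping groups.

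**Figure D3:**
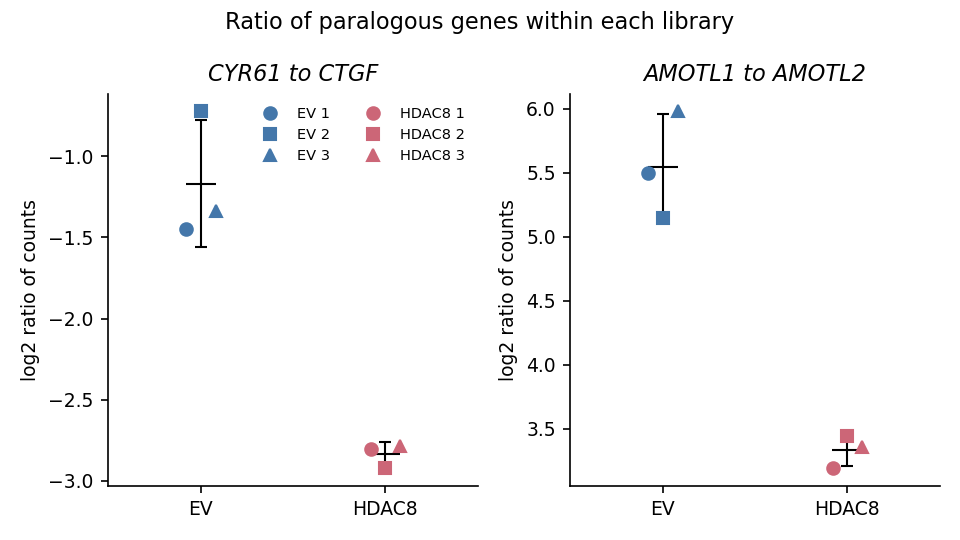
Log2 ratio of the counts of CYR61 to CTGF and of AMOTL1 to AMOTL2 within each library, with a point per library and a line at each group's mean. Both ratios are lower in all 3 HDAC8 libraries than in all 3 EV libraries, by 1.67 and 2.21 on the log2 scale between means.

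LATS2 and AJUBA act on YAP itself. LATS2 (ENSG00000150457, chr13:20973036-21061586), a kinase that phosphorylates YAP and TAZ, had 1149.3, 1147.8 and 1138.8 normalized counts in EV cells and 1306.6, 1087.7 and 1173.9 in the libraries labelled HDAC8. The EV libraries were nearly equal, and the HDAC8 libraries fell on both sides of them. Its log2 fold change was 0.05 (SE 0.20, DESeq2 with Benjamini-Hochberg adjusted p = 0.936), and the 95% interval of the fold was 0.796 to 1.36. The paralog LATS1 was not called either, at -0.18 (SE 0.18).

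AJUBA (ENSG00000129474, chr14:22971177-22982551) encodes a LIM protein that binds the LATS kinases and limits their action on YAP. It had 472.9, 408.1 and 400.9 normalized counts in EV cells and 785.8, 320.6 and 521.6 in the libraries labelled HDAC8. HDAC8 1 held the highest value of all 6 libraries and HDAC8 2 the lowest, so the groups overlapped. The log2 fold change of 0.35 (SE 0.35, 95% interval -0.34 to 1.03, DESeq2 with Benjamini-Hochberg adjusted p = 0.648) rested on HDAC8 1, without which it was -0.023, and for LATS2 that library's absence gave -0.020. Among the relatives of AJUBA, WTIP rose from 105.6 ± 5.49 to 273.3 ± 51.3 normalized counts (SD, n = 3 each), a log2 fold change of 1.37 (SE 0.42, DESeq2 with Benjamini-Hochberg adjusted p = 0.0115), whereas LIMD1 was not called, at -0.41 (SE 0.15, adjusted p = 0.0544).

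NT5E, CRIM1 and F3 act at the cell surface. NT5E (ENSG00000135318, chr6:85449584-85495791), the ecto-nucleotidase CD73 that makes adenosine from AMP outside the cell, had 803.2, 684.6 and 631.5 normalized counts in EV cells and 4236.9, 5979.0 and 6435.7 in the libraries labelled HDAC8. Every HDAC8 library was at least 5.27-fold above every EV library, with HDAC8 1 the lowest of its group. The log2 fold change was 2.97 (SE 0.19, 95% interval 2.60 to 3.35, DESeq2 with Benjamini-Hochberg adjusted p = 1.24e-50), or 7.86-fold between means of 706.4 ± 87.9 and 5550.5 ± 1160.3 (SD, n = 3 each).

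CRIM1 (ENSG00000150938, chr2:36355778-36551135), a transmembrane protein with cysteine-rich repeats that binds bone morphogenetic proteins, had 403.7, 657.5 and 617.7 normalized counts in EV cells and 1485.3, 1784.1 and 1616.0 in the libraries labelled HDAC8. The groups were apart by 2.26-fold at their nearest libraries. Its log2 fold change was 1.54 (SE 0.24, 95% interval 1.07 to 2.01, DESeq2 with Benjamini-Hochberg adjusted p = 7.53e-09), or 2.91-fold.

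F3 (ENSG00000117525, chr1:94529173-94541759) encodes tissue factor, the receptor that starts blood coagulation. Its normalized counts were 354.4, 289.5 and 257.1 in EV cells and 324.1, 380.0 and 288.6 in the libraries labelled HDAC8. The ranges of the groups lay over each other for most of their width. With a log2 fold change of 0.14 (SE 0.34, 95% interval -0.52 to 0.80, DESeq2 with Benjamini-Hochberg adjusted p = 0.898), a difference was not detectable at this spread, and the 95% interval of the fold was 0.695 to 1.75.

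**Figure D4:**
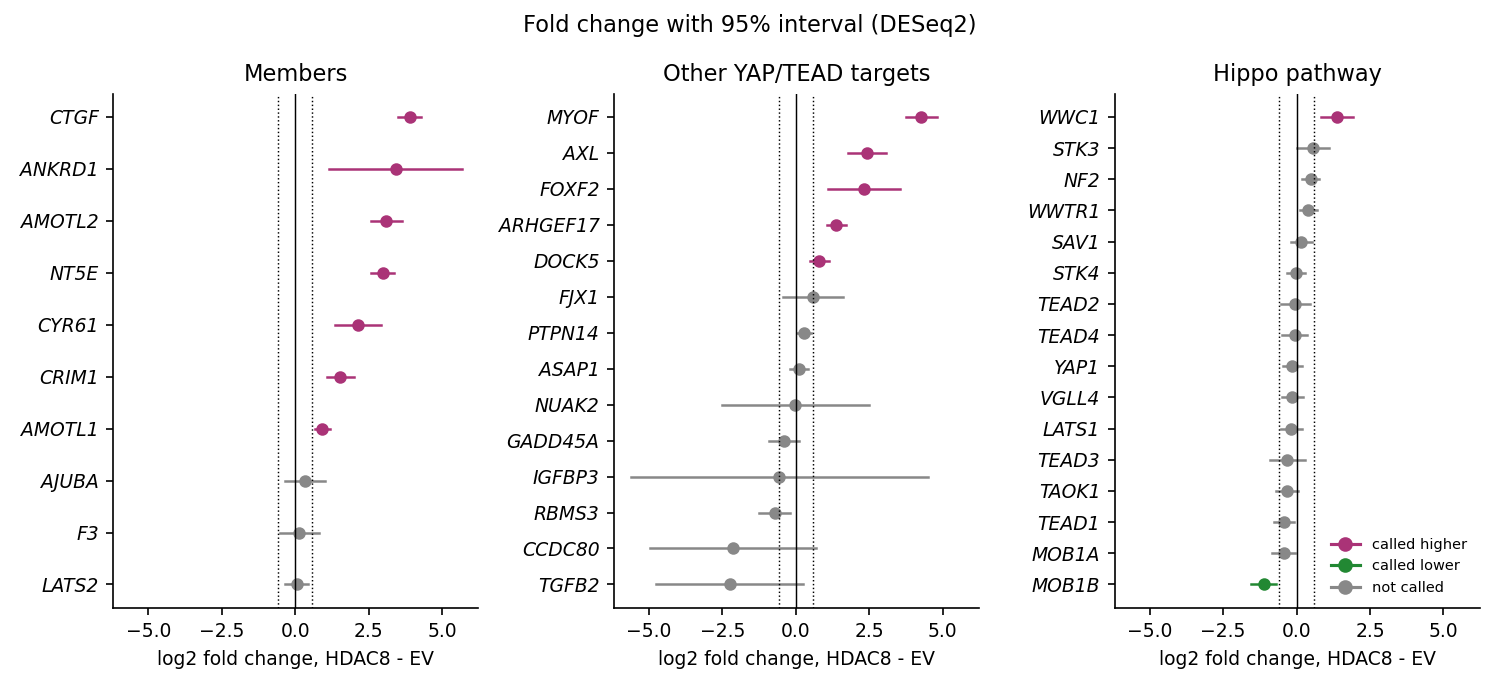
Log2 fold change, libraries labelled HDAC8 against EV, with the 95% interval from DESeq2 as bars and the call threshold of 0.58 marked. Separate panels hold the 10 members, 14 other YAP/TEAD targets and 16 Hippo pathway genes. Among the members, the intervals of AJUBA, LATS2 and F3 cross 0, and the widest is that of ANKRD1, from 1.17 to 5.67. In the panel of other targets the interval of IGFBP3 is wider, from -5.62 to 4.48.

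To compare genes with each other, CPM values (counts scaled to the library total) were divided by the length of the canonical transcript in kilobases. On this scale of levels AMOTL1 led in the EV libraries with 24.2 ± 0.93, followed by LATS2 (5.37 ± 0.25), NT5E (5.18 ± 0.87), F3 (3.42 ± 0.71), CTGF (2.77), AJUBA (2.67), CRIM1 (2.39), CYR61 (1.33), AMOTL2 (0.99) and ANKRD1 (0.087). Neighbours in this order whose libraries did not overlap were AMOTL1 and LATS2, NT5E and F3, and AMOTL2 and ANKRD1. The other neighbours did not differ beyond their spread.

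In the libraries labelled HDAC8 the level per kilobase was 47.5 ± 2.62 for AMOTL1, 42.5 for CTGF, 41.5 ± 7.48 for NT5E, 8.76 for AMOTL2, 7.18 for CRIM1, 6.11 for CYR61, 5.76 for LATS2, 3.85 for F3, 3.53 for AJUBA and 0.99 for ANKRD1. CTGF, in the middle of the order in the EV libraries, was next to AMOTL1 here, although the libraries of AMOTL1 and CTGF still did not overlap. CTGF and NT5E overlapped, as did AMOTL2 and CRIM1, CYR61 and LATS2, and F3 and AJUBA. LATS2, F3 and AJUBA, the members not called, moved down the order as the others passed them.

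**Figure D5:**
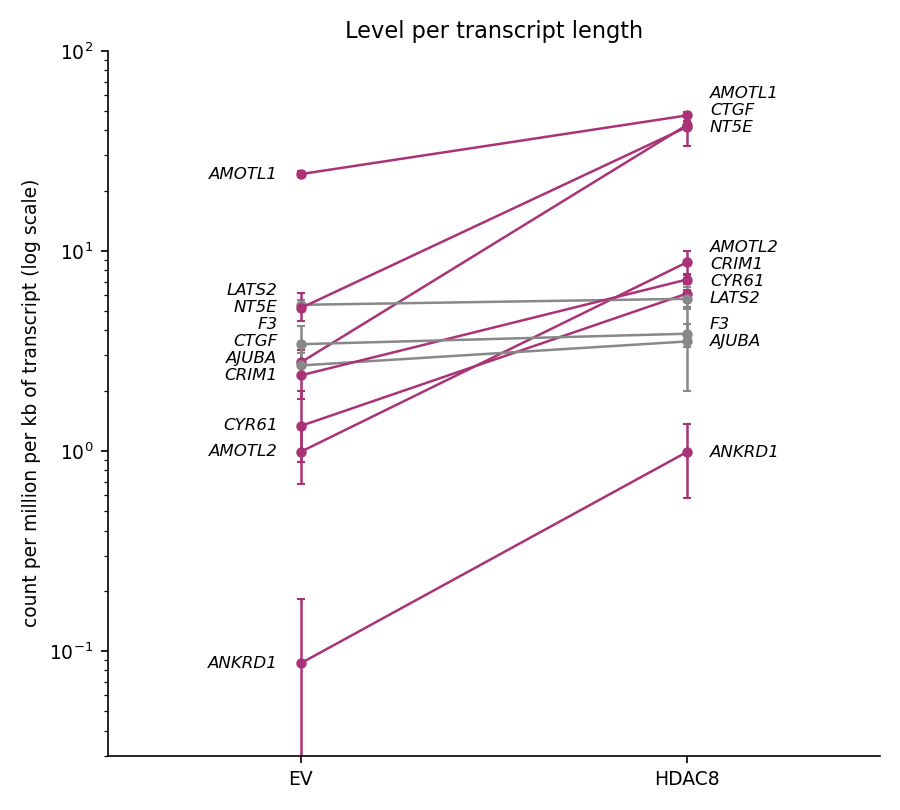
Mean level of each member in CPM per kilobase of canonical transcript, on a log axis, in the EV and the HDAC8 libraries, with bars for the range of the 3 libraries. CTGF moves from 2.77 to 42.5, and the lower bar of ANKRD1 in EV runs off the axis because EV 1 is at 0.

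A further 14 genes were looked at for comparison, listed from general knowledge of published YAP and TAZ target signatures. Earlier results of these data were known when the list was written, so its counts are not an independent check. Of the 14 genes, DESeq2 called 5 higher, where 5.57% of all genes tested were called higher, and none lower. Every HDAC8 library lay above every EV library in 7 of the 14, and below in 4. Over all 21021 genes tested, these held for 2904 and 3203. RBMS3 lay close to the threshold (log2 fold change -0.72, DESeq2 with Benjamini-Hochberg adjusted p = 0.0516), was the 1 gene of the list lower at an unadjusted p under 0.05, and was called lower by edgeR, by limma-voom, and by DESeq2 without a filter, with at least 10 counts in every library or without HDAC8 3. The median log2 fold change of the 14 was 0.19, with a range from -2.25 to 4.26, and 8 of the 14 were above 0. MYOF, the membrane repair protein myoferlin, went from 172.4 ± 79.6 to 3311.7 ± 276.2 normalized counts (SD, n = 3 each), a log2 fold change of 4.26 (SE 0.27). The receptor tyrosine kinase AXL rose by 2.42 (SE 0.33) and the forkhead transcription factor FOXF2 by 2.33 (SE 0.63) on the log2 scale. ARHGEF17 rose by 1.38 (SE 0.16) and DOCK5, an exchange factor for Rac, by 0.79 (SE 0.17). Under edgeR, which called 4.13% of all genes higher, 5 of the 14 and 6 of the 10 members were called higher.

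Of 16 genes of the Hippo cascade and its nuclear end, 1 was called higher and 1 lower, with a median log2 fold change of -0.10. These counts are near the shares over all genes tested, 5.57% higher and 5.44% lower, and are no result about the pathway. WWC1 (KIBRA), an upstream activator of the cascade, rose by 1.38 (SE 0.28, DESeq2 with Benjamini-Hochberg adjusted p = 3.10e-05). MOB1B, a co-activator of the LATS kinases, fell by 1.11 on the log2 scale (SE 0.22, adjusted p = 1.18e-05). Neither was called with the fold change minimum built into the test.

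The transcripts of the co-activators and of the TEAD factors were not called. YAP1 had 3631.1 to 4603.5 normalized counts in the EV libraries and 3296.3 to 4206.2 in those labelled HDAC8, a log2 fold change of -0.14 (SE 0.17, DESeq2 with Benjamini-Hochberg adjusted p = 0.730). WWTR1 had a log2 fold change of 0.41 (SE 0.16, adjusted p = 0.0631), with every HDAC8 library above every EV library. The lowest of these, HDAC8 1 (16023.4), was next to the highest EV library (15920.9). Without HDAC8 1 the log2 fold change of WWTR1 was 0.55 (DESeq2 with Benjamini-Hochberg adjusted p = 3.65e-07). With total-count size factors it was 0.44 (adjusted p = 0.0263). Both values stayed under the fold change minimum for a call. In every other alternative the adjusted p of WWTR1 stayed over the threshold. TEAD1 had a log2 fold change of -0.42 (SE 0.17, adjusted p = 0.0813), with every HDAC8 library below every EV library. TEAD2 (-0.04), TEAD3 (-0.31) and TEAD4 (-0.06) had adjusted p-values from 0.631 to 0.969. TEAD2 changed sign in 3 alternatives. Transcript levels do not show where YAP or TAZ is in the cell.

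The members' mean log2 deviation from their own EV means was -0.30, 0.22 and 0.08 in EV cells and 1.93, 1.78 and 1.98 in the libraries labelled HDAC8. Of 14442 other genes, the 5 with the smallest root mean square distance to this profile over the 6 libraries were ENC1 (0.080), CCDC149 (0.119), LINC01667 (0.122), ADAM19 (0.133) and PDGFA (0.134), all distances on the log2 scale. The 2 members nearest to the mean profile, CRIM1 (0.276) and CYR61 (0.336), were farther from it than these. With 14442 other genes to pick from against 10 members, that order says nothing about the members. The profile averages called and uncalled members, and ANKRD1 stood at -2.17 in EV 1.

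Markers of cell types were read beside the members. The melanoma label was matched by SOX10, at 9685.5 to 18067.9 normalized counts, and MITF, and neither was called (log2 fold change -0.33 and -0.20). The 7 melanocyte lineage markers summed to 243744 to 327504 normalized counts in the EV libraries and to 136368 to 181340 in those labelled HDAC8. Most of each sum was PMEL, at 169800 to 247772 and 89540 to 147944. PMEL, TYR, DCT and MLANA were called lower. This fall moved with the rise of the 7 members, and its part in that rise was not tested.

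The 6 fibroblast markers summed to 2365.7 to 2869.0 in the EV and 1150.1 to 2187.6 normalized counts in the HDAC8 libraries, with DCN at 0 in all. Most of this sum was LUM, at 2205.0 to 2662.4 and 1054.3 to 2157.9. The 4 keratinocyte or epithelial markers summed to 77.5 to 132.0 and 0 to 70.1, with EPCAM at 0. The 3 endothelial markers summed to 97.5 to 202.9 and 114.3 to 218.0, with CDH5 at 0. None of these sums rose clear of the EV range in the HDAC8 libraries.

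Among the 3 leukocyte markers, the defining PTPRC did not exceed the floor of 3 counts in any library. CD68, a lysosomal protein, rose by 0.92 on the log2 scale (SE 0.19). CD3E, a T cell receptor subunit, was at 0 in the EV libraries and at 78.7, 91.1 and 50.1 normalized counts in those labelled HDAC8. The leukocyte sum was 2286.0 to 3302.4 in the EV libraries and 4272.8 to 6164.6 in the HDAC8 libraries, and it moved with the 7 members. Nearly all of it was CD68, at 2286.0 to 3302.4 and 4191.6 to 6114.5. The part of these 2 genes in the result was not tested.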

How the data were processed

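RNA-seq of 3 EV and 3 HDAC8 libraries of WM164 cells was used. Trimmomatic, STAR (on the transcriptome) and RSEM were used by the authors in turn, and the deposited values are gene-level expected counts, which are not scaled between libraries and share a read between the genes it could come from. The genome build, annotation and use of strand for these libraries are not given in the sources used here, so genes that overlap or have near-identical copies carry extra uncertainty. Labels and methods name different RNA extraction kits. Gene positions and transcript lengths were taken from GENCODE 44 (GRCh38), where 56558 of the 60504 identifiers were found, and promoters from RefSeq.

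Expected counts were rounded. Total counts per library ran from 34741083 to 42041462, and 3 counts were taken as the floor of a gene, which covers counting error only. Groups came from the labels. For HDAC8 against EV, DESeq2 1.42.0 (R 4.3.3) fitted the 26162 genes whose counts summed to 10 or more, without covariates and with its default scaling, and gave a two-sided Wald test. Of these, 5141 had no adjusted p and were left out of counts. Thresholds (0.05 for the adjusted p, 0.58 for the size of the log2 fold change) follow the study's methods, which apply them to a corrected p, whereas a legend of the study names an uncorrected one. Normalized counts are counts divided by DESeq2 size factors, and intervals are at the 95% level. Log2 ratios of paralogs were compared by exact permutation. Nearness of profiles was the root mean square distance of log2 normalized counts plus 1.

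Named genes were the members, all detected paralogs, called genes of the other lists whose normalized counts averaged 50 or more, YAP1, WWTR1, the TEAD genes, MITF, SOX10 and the 5 nearest profiles. RBMS3, ANKRD2, LUM and the marker genes at 0 were named after their values were seen. Members and lists were chosen with earlier results of these data known. Alternatives were edgeR 4.0.16 (quasi-likelihood test), limma 3.58.1 (voom), other scalings and filters, a replicate block, a test against the fold change minimum, no mitochondrial genes, and each library left out. The fits were tested on simulated data, in which 177 of 23627 genes were changed. That is a far smaller share than the 11% of tested genes called in the real data. The recovery rates of the simulation are therefore not those of the real comparison. DESeq2 recovered 37.5% of the 2-fold and 41.6% of the 4-fold changes, with 49 false calls. edgeR recovered 34.1% and 39.3% with 30 false calls, and limma-voom 29.5% and 39.3% with 10. Where counts averaged 50 or more, DESeq2 recovered 58.2% and 76.6%, with 16 false calls. A planned search of protein sequences was not run.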

Additional observations from a re-analysis of the deposited data

How the results depend on the processing

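The count of members called higher was 7 with other size factors, no filter, no mitochondrial genes or a replicate block. It was 6 with edgeR, limma-voom or at least 10 counts in every library, where ANKRD1 was lost, and 5 when the fold change minimum was built into the test, where AMOTL1 was lost too. Leaving out each library gave 6 to 7 members, while 4.26% to 5.95% of all genes were called higher. CTGF, CYR61, AMOTL2, CRIM1 and NT5E were called in all 15 alternatives. The test against the fold change minimum called 3 of the other YAP/TEAD targets (MYOF, AXL and ARHGEF17) and 0 of the Hippo genes. Of the Hippo genes, edgeR, limma-voom and DESeq2 against 0 each called 2. Of 149 alternative values of the members, 139 kept direction and side of the threshold, 8 lost the call and 2 turned sign. These were AJUBA (-0.023) and LATS2 (-0.020) without HDAC8 1, and over all single libraries left out AJUBA ran from there to 0.62 and LATS2 to 0.12. The log2 fold change of TEAD2 turned to 0.0019 with total-count size factors, 0.032 without EV 2 and 0.023 without HDAC8 1, and without single libraries it ran from -0.13 to 0.032. The cause was not tested. With the longest transcript in place of the canonical one, 2 members exchanged ranks in the HDAC8 libraries, CYR61 and LATS2, and 2 in the EV libraries, CYR61 and AMOTL2. The log2 ratio difference without single libraries ran from -1.81 to -1.45 for CYR61 to CTGF and from -2.41 to -1.99 for AMOTL1 to AMOTL2.

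The replicate numbers are shared between groups, but deviations of same-numbered libraries were uncorrelated (-0.03, -0.07 and 0.04), so the numbers were not treated as pairs. With the replicate block 7 members were called, and the block changed no call of a member. ANKRD1 had 0 to 85 counts per library, and how its call varies with depth was not tested.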

Other observations

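The genes next to each member on its chromosome were read as well. For each member 10 genes were taken, the nearest by start position, an equal number on either side. All were tested, protein-coding and averaged 50 or more normalized counts. Their median log2 fold change was -0.53 around CTGF. It was 0.06 around AMOTL2, -0.36 around NT5E, -0.37 around AMOTL1, -0.06 around CRIM1, 0.07 around CYR61 and -0.65 around ANKRD1. Around the members that were not called, it was 0.19 for AJUBA, -0.11 for LATS2 and -0.28 for F3. By DESeq2, 1 of the 10 neighbours was called higher at each of CYR61, CRIM1, AJUBA and LATS2 and 0 at the other members, where 5.57% of all genes tested were called higher. Neighbours called lower numbered 3 at CTGF, 2 at ANKRD1 and 1 at each of NT5E, AMOTL1, F3 and CYR61, where 5.44% of all genes were called lower. A count of 1 in 10 is near these shares, which cover genes of every type and count.

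No single HDAC8 library led all members. The highest value in the HDAC8 group lay in HDAC8 1 for 3 members, in HDAC8 2 for 3 and in HDAC8 3 for 4. Over all genes tested these shares were 41.4%, 32.8% and 25.8%.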
